A study of Mus musculus with 10 samples.

Results

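The comparison set 1 FiTAc-seq library sonicated for 40 min against a pair of libraries sonicated for 5 min. All of them were homogenized at 65 °C, and these members were 3 of the series' 10 samples. The members were chosen by temperature and sonication time in the sample titles. All 3 came from formalin-fixed, paraffin-embedded (FFPE) sections of normal mouse liver. Paraffin was removed, the sections were heated overnight at 65 °C in buffer with 1% SDS, the chromatin was sonicated for 5 or 40 min, and H3K27Ac was immunoprecipitated with a Diagenode antibody in a low-input protocol. Either of 2 kits was used to make each library, and which one is not stated per library. Strain, age and number of animals are not stated either. Nothing says that the 5 min pair came from separate animals or blocks, so its spread may be technical. Lists of 4 other conditions were set beside the members: both sonication times at a lower temperature, fresh frozen liver, and H3K4me2. The H3K4me2 library was made by the older proteinase K protocol (FiT-seq), so it differs from the members in protocol as well as mark.

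H3K27Ac is acetylation of a lysine in the tail of histone H3, and it marks nucleosomes at active promoters and enhancers. In liver, the broadest acetylated domains lie over strongly transcribed genes of hepatocyte identity. Formalin crosslinks protein to DNA, and long storage in paraffin leaves chromatin that is hard to bring into solution. Sonication breaks that chromatin into fragments that the antibody can pull down. Fragment length limits how sharply a peak's edge and the dips between neighbouring nucleosomes can be drawn. The question was what changed in the peak map when the sonication was lengthened at the same temperature.

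The 40 min list held about as many peaks as the 5 min lists, but it had fewer very wide ones and covered less of the genome. At sites shared by the lists, its peaks were more often narrower than wider, and more often broken into several pieces. On chromosomes 1 to 19 of the mouse build mm9, the 40 min list held 56048 peaks. The 5 min lists held 59237 in replicate 1 and 55670 in replicate 2, a mean of 57453.5 ± 2522 (SD, n = 2). The 40 min count lay between the pair, and without replicate 1 it was the higher by 378. The covered length was 34.6 Mb after 40 min, against 43.7 and 39.7 Mb after 5 min (41.7 ± 2.78 Mb, SD, n = 2). The 40 min list was thus below both, with a difference of −7.13 Mb from their mean, which is more than the SD of the pair. The median width hardly moved, at 345 bp after 40 min and 355 and 354 bp after 5 min. The difference lay in the wide peaks. Peaks wider than 5 kb numbered 195 after 40 min, against 495 and 402 after 5 min (448.5 ± 65.8, SD, n = 2). The widest reached 14994 bp after 40 min, and 25335 and 22436 bp in the 5 min lists. With 1 library against 2, the smallest p that an exact permutation test allows is 0.333. No p-value is therefore given, and each difference is set against the 5 min pair.

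Another property of the lists ran alongside the sonication time. Neighbouring peaks were never closer than 76 bp in the 5 min lists, while in the 40 min list the smallest gap was 36 bp and 7002 gaps were shorter than 76 bp. Of the other lists, that of 50 °C and 40 min also had a smallest gap of 36 bp, and those of 50 °C and 5 min, fresh frozen liver and H3K4me2 each had 76 bp. The lists thus differ in how near each other peaks may lie, for a reason that is not stated. Every gap of up to 76 bp was closed in every list first, which closed 7140 gaps after 40 min and 194 and 178 in the 5 min lists. As deposited, with no gap closed, the 40 min list was the longer by 5548.5 peaks. The smallest peak was 146 bp in each list, so a shorter fragment of a peak lying just beyond the 36 bp limit could be lost from the 40 min list and joined in a 5 min list. Closing gaps cannot bring such fragments back. Sonication time and this property cannot be told apart in any comparison below.

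Overlapping peaks of the 3 lists were grouped into 70916 sites. All 3 lists held a peak at 25826 of them, with a median width of 1221 bp. Only the 40 min list held a peak at 9294 sites, which is 22.6% of the 41088 sites with a 40 min peak. Replicate 1 alone held 14229 sites, 28.5% of its own, and replicate 2 alone held 9453, 21.6% of its own. The share of sites found in neither other list was thus, for 40 min, between those of the 5 min libraries. Both 5 min lists, but not the 40 min list, held a peak at 6146 sites, 19.2% of the 31972 sites shared by the pair. The matching shares were lower when a 5 min library was the one that lacked the peak. Replicate 2 lacked 12.5% of the 29512 sites shared by 40 min and replicate 1. Replicate 1 lacked 8.12% of the 28108 sites shared by 40 min and replicate 2.

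**Figure D1:**
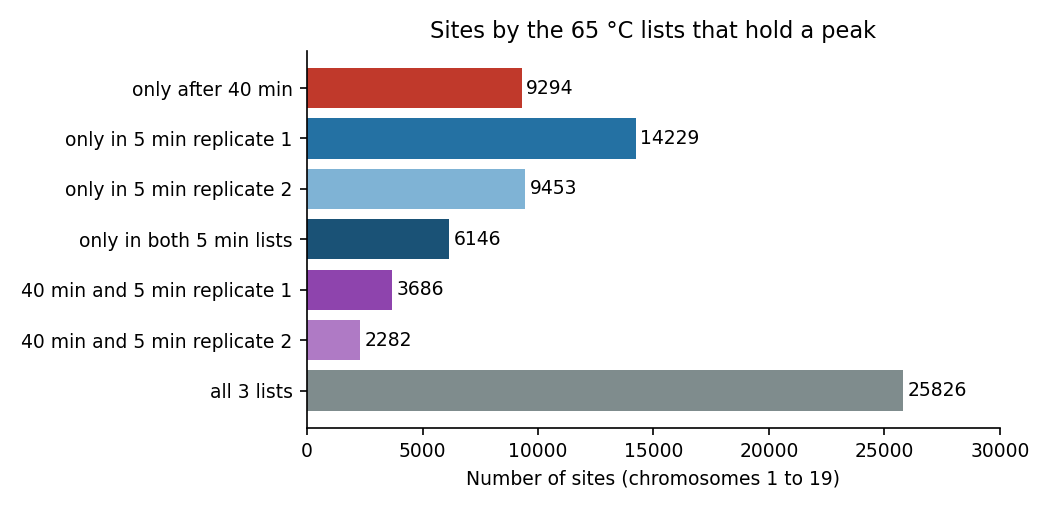
Number of sites (x axis) on chromosomes 1 to 19 by which of the 65 °C lists hold a peak there (y axis). The 9294 sites found only after 40 min are the fewest of the 3 classes held by a single list, and the 6146 sites of both 5 min lists outnumber the 3686 and 2282 shared by 40 min with 1 replicate.

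At sites with a single peak in each list, the edges after 40 min lay inside those after 5 min. There were 11225 such sites, which let the same places be measured in all 3 libraries. Their median peak width was 447 bp after 40 min, 571 bp in replicate 1 and 504 bp in replicate 2. The 40 min value was the lowest, at −90.5 bp from the pair's mean, against an SD of 47.4 bp within the pair. An edge after 40 min lay a median of 41 bp inside the mean edge of the pair (quartiles −140 and 40.5 bp, negative meaning inside). The left and right sides gave −41.5 and −41 bp, so the shift was the same on both. Against replicate 1 alone the shift was −52 bp, and against replicate 2 alone −31 bp. Replicate 1 against replicate 2 gave 19 bp, so the libraries of the pair differed too, by less than either did from the 40 min library. Without replicate 1, at the sites with 1 peak in each remaining list, the shift was −27 bp. The 40 min edge lay inside at 63.2% of edges, and both edges of a peak lay inside at 40.0% of sites and outside at 13.5%.

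**Figure D2:**
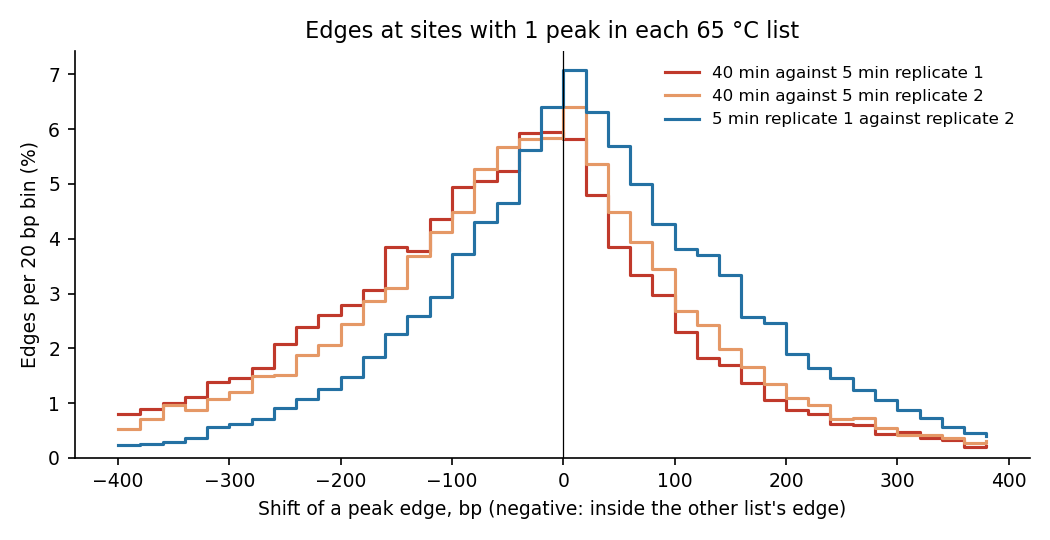
Share of peak edges per 20 bp bin (y axis, %) by the shift of an edge in bp (x axis, negative is inside the edge of the other list) at the 11225 sites with 1 peak in each 65 °C list. Both curves of 40 min against a 5 min replicate lean to negative shifts (medians −52 and −31 bp), and the curve of replicate 1 against replicate 2 leans to positive ones (median 19 bp).

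Counting sites gave the same order. The 40 min peak was narrower than both 5 min peaks at 5940 sites, 52.9% of the 11225. Replicate 1 was the narrowest of the 3 at 18.2% of these sites and replicate 2 at 27.8%. The 40 min peak was the widest at 2271 sites, or 20.2%, against 48.0% for replicate 1 and 31.5% for replicate 2. On single chromosomes, the share where 40 min was narrowest ran from 49.5% on chromosome 8 to 56.8% on chromosome 7. The same held beyond single-peak sites. Between the outermost edges of the 25826 sites of all 3 lists, the median shift was −48.5 bp for 40 min against the pair, and 20 bp for replicate 1 against replicate 2.

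The inward shift was larger at wide and high-ranking peaks than at small ones, and at the smallest peaks no list shifted inward. Sites were sorted by the mean width of the other 2 lists, each list being taken in turn as the one compared. At 2344 sites under 300 bp, the 40 min edges lay 19.5 bp outside, which is the direction that replicate 1 (41.75 bp) and replicate 2 (22.5 bp) showed there as well. At 300 to under 600 bp the 40 min shift was −27.5 bp, at 600 to under 1200 bp it was −80.5 bp, and at 1200 to under 2400 bp it was −110.5 bp. At 1200 to under 2400 bp, replicate 1 gave 56.75 bp and replicate 2 gave 22 bp. The 40 min peak was the narrowest there at 74.7% of 1708 sites (95% Wilson interval 72.6 to 76.7%), against 11.4% for replicate 1 and 21.0% for replicate 2. The shift did not grow further in the widest class: at 334 sites of 2400 bp or more it was −97 bp, with 48.25 and 5.75 bp for the replicates, and the 40 min peak was the narrowest at 69.8%. Intervals here and below cover counting error only. By rank, the upper 10% of sites had a 40 min shift of −104 bp, with 62 and 29.5 bp for the replicates. The last 25% had 11 bp, with 40 and 21 bp for the replicates. Each peak's rank rests on the authors' own score of that peak, which is used only within a list.

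The single-peak sites were also compared with 4 other lists, none of which played a part in forming them. For each list, only the single-peak sites with exactly 1 of its peaks were used. At most of those, the 40 min width was nearer than the mean 5 min width to the width in that list. All of those lists but that of 50 °C and 40 min had peaks narrower than each 65 °C list at the sites concerned. Fresh frozen liver, in which tissue was fixed with formaldehyde for 10 min and never embedded, had exactly 1 H3K27Ac peak at 6447 of the single-peak sites, with a median width of 472 bp. At the same sites the medians were 493 bp after 40 min, 639 bp in replicate 1 and 567 bp in replicate 2. Edges reached 25 bp beyond the fresh frozen edge after 40 min, and 87 and 62 bp beyond it in the 5 min lists. The 40 min width was nearer to the fresh frozen width than the mean of the pair was at 60.4% of sites. It is not stated whether that liver was from the animal that gave the FFPE tissue. At 8521 of the sites the 50 °C, 40 min list had 1 peak, with a median of 527 bp, and the 65 °C medians there were 464, 573 and 514 bp. That list fell between the 65 °C libraries, and the 40 min width was the nearer to it at 59.4%. At 50 °C and 5 min the share was 71.7% of 3825 sites, where the list's median was 307 bp, and for H3K4me2 it was 77.2% of 2540 sites, with a median of 275 bp. The fresh frozen share was thus not the highest.

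Sites that were 1 peak in each 5 min list were often split after 40 min, and more often than either 5 min library split sites that the other 2 lists held whole. A site counts as split where a list holds 2 or more peaks and the other 2 lists hold 1 each. The 40 min list split 3283 of 14508 such sites, 22.6% (95% Wilson interval 22.0 to 23.3%). Replicate 1 split 1510 of 12735, or 11.9% (11.3 to 12.4%), and replicate 2 split 2038 of 13263, or 15.4% (14.8 to 16.0%). In the opposite direction, 1 peak after 40 min corresponded to 2 or more in both 5 min lists at 1054 of 15827 sites, 6.66%. The same count was 13.2% where replicate 1 held the single peak and 8.55% where replicate 2 did. The 40 min list was thus the most often split and the least often joined of the 3. With gaps of up to 500 bp closed, the split shares fell to 6.39% after 40 min, 3.30% in replicate 1 and 4.57% in replicate 2. Of the split sites, 2790 had 2 peaks after 40 min, 402 had 3, 73 had 4, and 18 had 5 or more.

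Splitting rose with width, and only at wide sites did the 40 min list stand apart from the pair. Under 600 bp, 7.03% of sites were split after 40 min, 8.32% in replicate 1 and 8.59% in replicate 2, so the 40 min list was the lowest there. At 600 to under 1200 bp the shares were 22.7, 16.1 and 21.8%. At 1200 to under 2400 bp they were 43.8% after 40 min, 17.0% in replicate 1 and 24.6% in replicate 2. At 2400 to under 4800 bp they were 63.4, 24.7 and 31.7%. From 4800 bp on, 78 of 89 sites were split after 40 min, while the replicates had 17 and 29 such sites, too few for a close comparison in the case of replicate 1. In the upper 10% of sites by rank, 42.4% were split after 40 min, against 13.2% in replicate 1 and 18.4% in replicate 2.

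**Figure D3:**
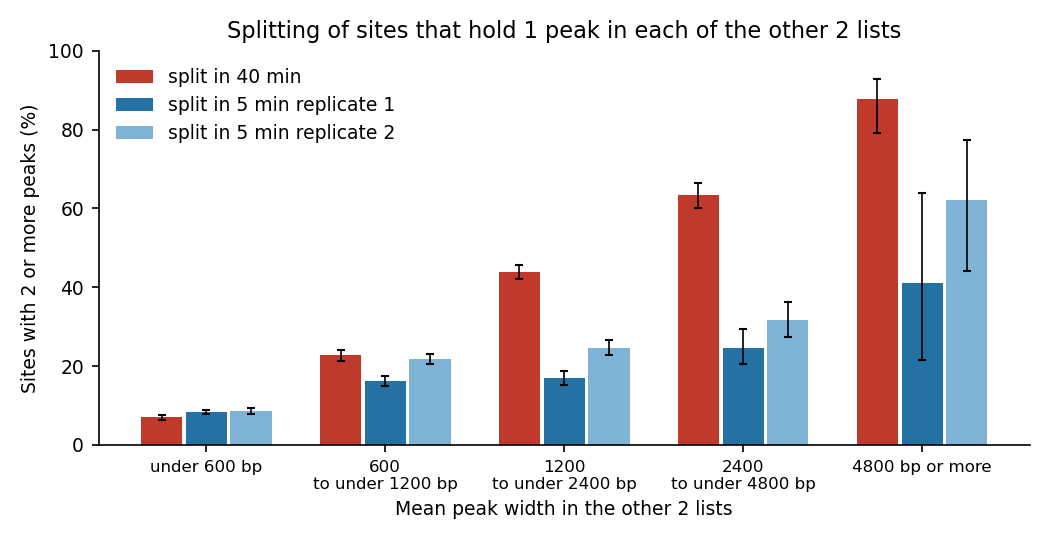
Share of sites with 2 or more peaks in a list (y axis, %) where each of the other 2 lists holds 1, by the mean peak width in those other lists (x axis, bp), with 95% Wilson intervals for counting error. The bars of the 3 lists are within 2 percentage points of each other under 600 bp, and from 1200 bp on the 40 min bar is the highest.

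The gaps opened after 40 min were short. The 3283 split sites had 3889 gaps with a median of 150 bp (quartiles 109 and 206 bp). Gaps in sites split in replicate 1 or replicate 2 alone had a median of 131 bp each. Gaps over 500 bp were 1.47% of those after 40 min.

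The places where the 40 min list broke a peak were often breaks in the other lists as well. Fresh frozen H3K27Ac peaks covered 17.0% of the bases in the 40 min gaps and 51.0% of the bases in the peaks beside them. For sites split in replicate 1 alone the figures were 25.1 and 39.9%, and for replicate 2 alone 24.1 and 42.9%. The contrast between gap and peak was thus larger at the 40 min gaps. Where fresh frozen peaks lay on both sides of a 40 min gap, they too had a break inside it at 1187 of 1627 gaps, 73.0% (95% Wilson interval 70.7 to 75.1%). The share was 35.0% of 443 gaps for replicate 1 and 40.9% of 618 gaps for replicate 2. The list of 50 °C and 5 min broke at 65.1% of 1615 flanked 40 min gaps, against 44.4 and 56.0% for gaps of the replicates. That of 50 °C and 40 min broke at 52.0% of 3054, against 24.9 and 27.6%. Each of these 3 lists therefore shared the breaks of the 40 min list more often than those of a 5 min replicate. Gaps of the replicates come from narrower sites on the whole and were shorter, with medians of 131 bp against 150 bp after 40 min. They were matched neither for the width of the site nor for the length of the gap.

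Some of the highest-ranking sites were split by such short gaps. None of the 5 sites named here was still split with gaps of up to 500 bp closed. The second and the third were also not split among the 30000 highest peaks, nor the third among peaks with a value of at least 5. The fourth highest site split after 40 min, at chr6:129130263-129136462, was a single peak of 5877 bp in replicate 1 and of 6200 bp in replicate 2. After 40 min it held 4 peaks of 3000, 227, 346 and 623 bp, which together spanned 4510 bp. Its rank was 15.5 and 24.5 in the 5 min lists and 193.5 after 40 min, where rank 1 is the highest peak and ties share a rank. Both 50 °C lists held 2 peaks there. Fresh frozen liver held 2, of 479 and 1827 bp, and the break between them lay inside the first 40 min peak rather than at a 40 min gap. The fifth, at chr4:134477568-134482408, was 4545 and 4736 bp wide after 5 min and held 3 peaks of 284, 1338 and 2711 bp after 40 min, with ranks of 23, 27 and 83. The second, at chr5:22937450-22942588, kept its place at the head of the lists, with ranks 8, 7.5 and 1.5, and was divided once by a gap of 311 bp. The first, at chr7:38967728-38972132, ranked 1, 2 and 4 and was divided once, by 84 bp. The third, at chr5:143665911-143673066, was divided by 414 bp. The opposite case was led by chr7:16895706-16900211, a single peak of 4438 bp after 40 min (rank 12) that was 2 peaks in each 5 min list (ranks 2378.5 and 1806). Of the 5 highest sites of that kind, 4 also held 2 peaks at 50 °C and 40 min, and all 5 held 2 or more at 50 °C and 5 min.

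**Figure D4:**
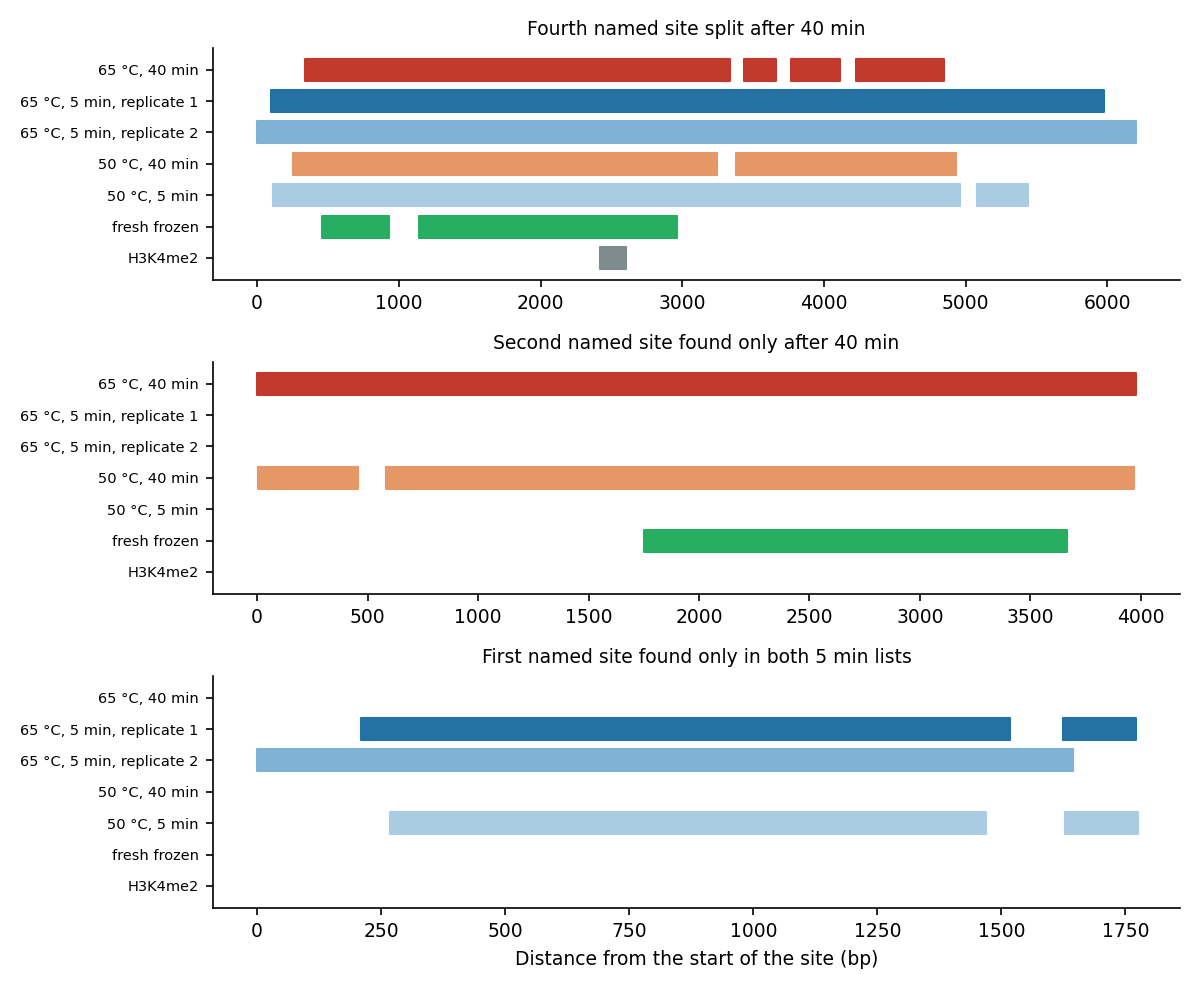
Peaks of 7 lists (rows) along 3 sites, by distance from the start of the site (x axis, bp), after gaps of up to 76 bp were closed. The site above is 1 peak in each 5 min list and 4 peaks after 40 min, the middle site has peaks at both temperatures only after 40 min and in fresh frozen liver, and the lower site has peaks only in the 5 min lists of both temperatures.

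Single-peak sites near the head of the lists were also mostly narrower after 40 min. The highest, chr1:180335317-180337614, had 1593 bp after 40 min and 2298 and 2213 bp after 5 min, with ranks of 14, 26 and 14.5. Among 927 single-peak sites in the upper 5000 of all 3 lists, 701 were narrower after 40 min than in both replicates (75.6%) and 55 were wider (5.93%). Over all 11225 single-peak sites these shares were 52.9 and 20.2%. Of the 927, the largest loss was at chr10:52137253-52139591, with 967 bp after 40 min and 2269 and 2339 bp after 5 min. Fresh frozen liver covered 820 bp there. Gains and losses are ordered by the difference from the nearer of the 5 min widths. The largest gain was at chr6:59374367-59376865, with 2440 bp after 40 min and 1762 and 1844 bp after 5 min, and there fresh frozen liver covered 1542 bp. The next gains were at chr4:62360405-62362956 (2427 against 1922 and 1599 bp) and chr6:72221240-72223557 (2278 against 1927 and 1841 bp).

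Sites found only after 40 min were mostly small and weak. Their median width was 182 bp, against 195 and 188 bp for the sites of replicate 1 alone and replicate 2 alone. Their median rank was 78.5% of the way down the 40 min list, and 89.4% of them lay in its lower 50%. The sites of replicate 1 alone had a median rank of 76.4% and those of replicate 2 alone 81.0%, so the 3 classes were alike in size and rank. In the upper 10% of the 40 min list, 3 of the 9294 sites were found. Many lay beside acetylated sites: the median distance to a 5 min peak was 506 bp, and 49.8% were within 500 bp of such a peak. The distances were shorter for sites of replicate 1 alone (406 bp) and of replicate 2 alone (314 bp).

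The 50 °C, 40 min list and the fresh frozen list met these sites more often than sites of a single 5 min library. The 50 °C, 5 min list and the H3K4me2 list met them less often. The classes are not alike in how they were formed: a site of 1 replicate alone was missed by a library of its own condition, while the 40 min list was 1 library with no other of its condition to miss the site. How much of the difference this choice makes was not tested. At 3806 of them the 50 °C, 40 min list had a peak, 41.0% (95% Wilson interval 40.0 to 42.0%). It met 16.4% of the sites of replicate 1 alone (15.8 to 17.0%) and 16.9% of those of replicate 2 alone (16.2 to 17.7%). The 50 °C, 5 min list went the other way, with 3.01% (2.68 to 3.38%) of the 40 min sites, 6.25% of those of replicate 1 and 7.41% of those of replicate 2. Fresh frozen peaks met 22.4% (21.5 to 23.2%) of the sites found only after 40 min, against 11.4 and 9.98%. H3K4me2 is a methylation of the same histone at promoters and enhancers. Its list came from FiT-seq, so both mark and protocol differ. That list met 1.50, 2.17 and 1.80%, with the sites found only after 40 min the lowest. Sites of all 3 lists, which were wider and ranked higher, were met far more often by each list. The 50 °C lists of 40 and 5 min met 94.3 and 63.0% of them, fresh frozen 76.4% and H3K4me2 26.7%. The list of 50 °C and 40 min shares the smallest gap of 36 bp with the 65 °C, 40 min list, while the fresh frozen list has that of the 5 min lists.

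**Figure D5:**
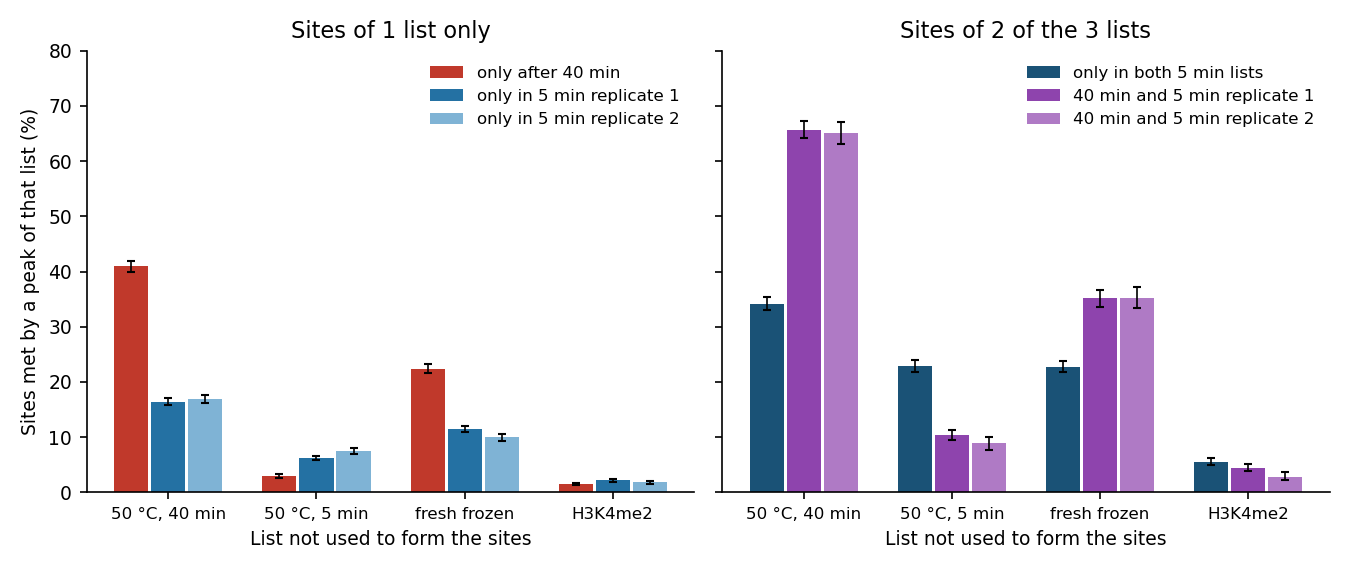
Share of sites (y axis, %) that meet a peak of a list not used to form them (x axis), for sites of 1 of the 65 °C lists (left) and of 2 of the 3 (right), with 95% Wilson intervals for counting error. Sites found only after 40 min meet 50 °C, 40 min peaks in 41.0% and fresh frozen peaks in 22.4% of cases, above both replicate-only classes, and sites of both 5 min lists meet 50 °C, 5 min peaks in 22.9%, above both classes that include 40 min.

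The shares also differed within classes of width and rank. Of sites under 200 bp, 30.3% of those found only after 40 min met a 50 °C, 40 min peak, against 13.1% for replicate 1 alone and 14.8% for replicate 2 alone. Of sites of 300 bp or more, the shares were 74.6, 25.4 and 24.8%. At that width fresh frozen peaks met 39.0% of 1281 sites found only after 40 min, 17.0% of 2314 of replicate 1 and 13.6% of 1275 of replicate 2. In the upper 50% of each list the 50 °C, 40 min shares were 73.6, 23.5 and 23.4%. Across the 19 chromosomes, the share met at 50 °C and 40 min ran from 37.1 to 44.1%.

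At 50 °C, too, far more of these sites had a peak only after 40 min than only after 5 min, as did every other class with a 40 min peak. Of the 9294, 3665 (39.4%) had a peak at 50 °C only in the list of 40 min, and 139 (1.50%) only in that of 5 min. At sites of all 3 lists the counts were 8433 (32.7%) and 364 (1.41%), and where 40 min shared a site with 1 replicate the shares were 58.2 against 2.90% for replicate 1 and 59.2 against 2.94% for replicate 2. The pattern is thus not particular to sites found only after 40 min. Fresh frozen liver had a peak at 32.4% of the 3665, against 15.8% of the 5349 sites with no peak in either 50 °C list. The matching shares were 22.4 and 9.39% for sites of replicate 1 alone, and 17.8 and 8.50% for replicate 2 alone. For sites of replicate 1 alone the 50 °C counts were 2120 (14.9%) and 672 (4.72%), and for replicate 2 alone 1460 (15.4%) and 563 (5.96%). Of the 50 °C lists, that of 40 min is the longer, with 57298 peaks against 38005. Farther from other acetylated sites the pattern changed in part. Of 2130 sites more than 5 kb from any 5 min peak, 44.1% met a fresh frozen peak, 37.8% met a 50 °C, 40 min peak and 1.03% a 50 °C, 5 min peak. Within 5 kb the fresh frozen share was 15.9%.

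A few sites found only after 40 min were broad and strong. The second highest, at chr6:141892067-141896043, was a peak of 3977 bp at rank 1916 of the 40 min list. It was met by 2 peaks covering 3838 bp at 50 °C and 40 min (rank 2482), and by a fresh frozen peak of 1916 bp, and it had no peak in either 5 min list at 65 °C or in that at 50 °C. The third, at chr7:16953698-16956247, was 2550 bp wide at rank 4455 and was covered over its whole length at 50 °C and 40 min, at rank 1461, with no fresh frozen peak. The fifth, at chr5:117534911-117536606, was 1696 bp wide at rank 7401 and was again covered whole at 50 °C and 40 min. The highest, at chr2:166267277-166267556, was 280 bp wide at rank 865 and had no peak in any other list compared. The fourth, on chromosome 18, was 355 bp wide at rank 6876 and met fresh frozen and H3K4me2 peaks but none at 50 °C. In all, 10 sites of this class were 1 kb wide or more, and each of the 10 met a 50 °C, 40 min peak, 5 a fresh frozen peak and none a 50 °C, 5 min peak. Replicate 1 alone had 2 sites that wide and replicate 2 alone had 0.

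Sites found only in both 5 min lists were met by the shorter sonication at 50 °C more often than sites that 40 min shared with 1 replicate. They had been found in both libraries of a condition, which the latter had not. Their median width was 404 bp, against 361 and 340 bp for sites that 40 min shared with replicate 1 only or replicate 2 only. Their median rank was 61.3% of the way down replicate 1 and 67.5% down replicate 2. The 50 °C, 5 min list met 1408 of the 6146, 22.9% (95% Wilson interval 21.9 to 24.0%). It met 10.3% (9.39 to 11.4%) of the sites that 40 min shared with replicate 1 only and 8.85% (7.75 to 10.1%) of those with replicate 2 only. For the list of 50 °C and 40 min the share was 34.1% (33.0 to 35.3%), against 65.7 and 65.1%. Fresh frozen peaks met 22.8% of the sites of both 5 min lists, below the 35.2 and 35.3% of the classes that include 40 min. H3K4me2 met 5.56%, against 4.45 and 2.85%. At 50 °C, 867 of the sites (14.1%) had a peak only after 5 min and 1557 (25.3%) only after 40 min, so a peak in the longer list was still the more frequent. Among the 30000 highest peaks of each list the order turned, with 38.5% of the sites met by the 5 min list of 50 °C and 32.5% by that of 40 min.

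Of these sites, 286 (4.65%) were 1 kb wide or more, against 38 (1.03%) and 14 (0.613%) of the classes that 40 min shared with replicate 1 or replicate 2. Of the 286, the 50 °C, 5 min list met 188, the 50 °C, 40 min list 126 and the fresh frozen list 98. In the same order, these lists met 6, 35 and 21 of the 38, and 2, 14 and 8 of the 14. The highest, at chr15:84571315-84573085, was 1771 bp wide. Replicate 1 held 2 peaks there and replicate 2 held 1, at ranks 7267.5 and 4091.5. The 50 °C, 5 min list held 2 at rank 2033.5, and no 40 min, fresh frozen or H3K4me2 peak met it. The second, at chr5:146343972-146344729, was 758 bp wide and had no peak in any other list compared. The third, at chr6:132413670-132413917, was 248 bp wide and also stood at rank 56 of the H3K4me2 list. It stood at rank 11 of the 112 autosomal peaks of the H3K27Ac library that, like the H3K4me2 library, was made by FiT-seq. The fourth, at chr17:15191676-15192022, met a 50 °C, 5 min peak, and the fifth, at chr2:172896912-172897149, met none. None of the 5 met a fresh frozen or a 50 °C, 40 min peak. The median distance of the 6146 sites to a 40 min peak was 958.5 bp. Of the 1838 more than 5 kb away, 41.9% met a fresh frozen peak and 12.7% an H3K4me2 peak.

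Counted in bases, the ground lost after 40 min was mostly at the rims of shared sites. The 3 lists covered 55.1 Mb together, of which 25.3 Mb (45.9%) was in all 3. Both 5 min lists but not the 40 min list covered 7.21 Mb. Of that, 51.7% lay outside the outermost 40 min peaks of a shared site, 29.8% between 40 min peaks of a site, and 18.5% in sites without a 40 min peak. Fresh frozen peaks covered 14.4% of these bases, against 50.2% of the bases in all 3 lists. Of the bases that 40 min shared with replicate 1 only or replicate 2 only, they covered 24.2 and 23.4%. Only the 40 min list covered 4.17 Mb, of which 48.5% was in sites without a 5 min peak. Fresh frozen peaks covered 18.1% of these bases, and at 50 °C the coverage was 42.8% by the list of 40 min and 3.13% by that of 5 min. Bases of replicate 1 alone (8.09 Mb) were covered to 8.52% by fresh frozen peaks and those of replicate 2 alone (5.21 Mb) to 7.91%. The 40 min bases were thus covered by fresh frozen peaks more than those of either replicate alone. As with sites, bases of 1 replicate alone were missed by a library of its own condition, and the 40 min library had no such partner.

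The order of strength among shared sites changed little. Over the 11225 single-peak sites, Spearman's rho of the ranks was 0.75 between 40 min and replicate 1, 0.74 between 40 min and replicate 2, and 0.80 within the pair. Over all sites shared by a pair of lists it was 0.82, 0.82 and 0.85. These values describe sites along the same genome, which are not replicates, and libraries from the same tissue. The 40 min ranks were a little farther from either replicate than the replicates were from each other.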

How the data were processed

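Peak lists of H3K27Ac ChIP-seq were compared, and a FiT-seq list of H3K4me2 was set beside them. Per the submitters' processing notes, BWA aligned the reads and MACS2 called peaks, on mm9. Their versions and thresholds, and any control, are not given in the sources used here. The authors deposited 1 list for each of 9 libraries, with 5 columns and no read counts, so depth is unknown. The deposited value in column 5 was read as −log10 of a q-value, because the lists end at or just above 2. It served only for ranks within a list.

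Chromosomes 1 to 19 were kept, gaps of up to 76 bp closed, and closed peaks given the highest value of their parts. Peaks overlapping by at least 1 bp formed sites. Each library in turn was set against the other 2. Shares carry Wilson 95% intervals. Regions named are the 5 highest by rank of each class (single-peak, split, joined and found only at 1 sonication time), and the 3 largest losses and gains of width within the upper 5000 of all lists. Members, lists and rules were chosen with earlier results of these data known. Outermost edges, sites of 1 kb or more and the split by both 50 °C lists were added after seeing the data.

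No mm9 genome or gene annotation was used here, so regions carry no gene names or sequences, and planned lists of genes and markers of liver cells were not run. The input DNA, the 80 °C list and the other chromosomes were left out. Alternatives were no gap closing, 500 bp closing, added sex chromosomes, values of at least 5, the 30000 highest peaks, 50% overlap and leaving out either 5 min library. The site, edge and splitting steps were tested on simulated data. Tables were handled with pandas 2.3.3 and numpy 2.4.6 in Python 3.11.15, intervals computed with scipy 1.17.1, and plots drawn with matplotlib 3.10.9.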

Additional observations from a re-analysis of the deposited data

Results flagged for a closer look

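In 3 measures the difference between the 40 and 5 min lists had opposite signs at the 2 temperatures, in every library pairing the data allow. None of these differences between temperatures was tested, because each 50 °C condition had 1 library. The covered length changed by −7.13 Mb at 65 °C, 40 min minus the mean of the 5 min pair, and by 19.3 Mb at 50 °C, where it was 36.3 Mb after 40 min and 17.1 Mb after 5 min. The number of peaks wider than 5 kb changed by −253.5 at 65 °C and by 189 at 50 °C, from 16 to 205. The 90th percentile of peak width changed by −374.55 bp at 65 °C and by 501 bp at 50 °C. The 40 min lists of the 2 temperatures were near each other, at 34.6 and 36.3 Mb, and the 5 min lists were not. With 38005 peaks, the 50 °C, 5 min list was the shortest of the FiTAc-seq lists compared. The smallest gap between peaks followed sonication time at both temperatures, so the 2 cannot be told apart here either.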

How the results depend on the processing

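Each result was recomputed under the alternatives. Sites found only after 40 min met 50 °C, 40 min and fresh frozen peaks more often than sites of either 5 min library alone, and the 40 min list was the most often split and the most often narrowest, in every setting that used all 3 lists. The peak count difference turned sign, to 5548.5, with no gap closed. With no gap closed, the split share was 30.5%, the share of single 40 min peaks split in both 5 min lists 4.86%, the share of 40 min sites met at 50 °C and 40 min 42.0%, and rho 0.717. With gaps of up to 500 bp closed, the width difference was −222.5 bp, the edge shift −91 bp, the narrower share 57.6%, the split share 6.39% (3.30 and 4.57% for the replicates) and its reverse 1.66%. Sites only after 40 min were then 5419, met by 50 °C and 40 min, 50 °C and 5 min, fresh frozen and H3K4me2 peaks at 35.3, 2.31, 26.1 and 1.85%. Sites only in both 5 min lists were 2936, the last 3 shares being 25.1, 34.7 and 8.99%, and rho was 0.849. With values of at least 5, the width difference was −165 bp, the edge shift −60 bp, the narrower share 58.6%, the reverse split share 5.58% and rho 0.785. Sites only after 40 min were 5673, met at 48.9, 1.34, 26.7 and 1.22%, and those of both 5 min lists were met at 41.9, 16.4 and 26.8% by the first 3. With the 30000 highest peaks, the width difference was −231 bp, the edge shift −76.5 bp, the narrower share 62.5%, the split share 20.8%, its reverse 3.99% and rho 0.793. Sites only after 40 min were 3432, met at 44.5, 4.63, 29.7 and 3.18%. Sites only in both 5 min lists were 2986, at a median rank of 69.2% and met at 32.5, 38.5, 31.7 and 12.4%. With an overlap of 50% of the shorter peak, the split share was 21.0%, its reverse 4.21% and rho 0.736. The 40 min sites were met at 44.2% by 50 °C and 40 min, 4.92% by 50 °C and 5 min and 1.87% by H3K4me2, and those of both 5 min lists at 39.5, 25.1 and 24.1% by the first 3. The cause of these shifts was not tested.

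Leaving out either 5 min library gave peak count differences of −3189 to 378, the latter without replicate 1, which turns its sign. The covered length difference ranged from −9.10 to −5.16 Mb, the width difference from −110 to −59 bp and the edge shift from −44 to −27 bp, the last without replicate 1. The narrower share ranged from 61.8 to 67.8%, the split share from 21.7 to 24.7% and its reverse from 9.09 to 10.8%. Each is then judged against 1 list rather than both, so they are not comparable with the main 52.9, 22.6 and 6.66%. Sites only after 40 min ranged from 12690 to 14724, since absence from 1 list is then enough. They were met at 46.5 to 48.7% by 50 °C and 40 min, 4.81 to 5.83% by 50 °C and 5 min, 24.3 to 25.2% by fresh frozen and 1.82 to 2.36% by H3K4me2 peaks, and rho was 0.708 to 0.713. Adding chromosomes X and Y moved no result beyond its counting interval or the spread of the pair. No paired analysis was possible because the 40 min condition had 1 library with no replicate number. Depth is unknown, so a missing peak does not show missing acetylation, and 1 library at 40 min leaves its own spread unmeasured.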

Other observations

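The 3 lists of 65 °C met similar shares of the fresh frozen peaks. Of 47189 autosomal fresh frozen H3K27Ac peaks, 72.4% met a 65 °C, 40 min peak, 73.3% a peak of 5 min replicate 1 and 70.6% a peak of replicate 2, so the 40 min list lay between the pair. Of the 3 lists, only that of 40 min met 1964 fresh frozen peaks, only replicate 1 met 1545 and only replicate 2 met 862. A further 1908 met both 5 min lists but not the 40 min list, and 8718 met none of the 3 lists. The peaks met only after 40 min had a median width of 280 bp and a median rank 64.0% of the way down the fresh frozen list, against 245 bp and 73.3% for replicate 1 alone.

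The H3K4me2 list, which differs in protocol (FiT-seq) as well as mark, leaned the other way. Of its 11604 peaks, 68.6% met a 40 min peak, 76.7% a peak of replicate 1 and 73.4% a peak of replicate 2, so the 40 min list was below both. The 50 °C, 5 min list showed the same order, with 80.4% after 40 min against 90.4 and 88.6%.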
